A study of Mus musculus with 8 samples.

Results

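The genes described here are the mitochondrial carrier genes of the mouse, those whose symbol begins with Slc25a and a number. The rule found 42 of the 14861 genes in the deposited table of nascent transcription. The RefSeq annotation of GRCm38.p6 lists 47 protein-coding genes of that name. Slc25a21, Slc25a24, Slc25a27, Slc25a37 and Slc25a54 were the other 5 and were not analysed here. Transcription was measured by PRO-seq, a run-on assay in nuclei that labels the RNA of polymerases at work on a gene, so that its signal reports transcription as it happens and not the stock of mRNA. The cells were mouse induced pluripotent stem cells of a clonal line with the FUCCI2 cell-cycle reporter, kept on irradiated feeder cells with serum, LIF and inhibitors of MEK and GSK3 in all groups. The mitotic group was treated with Nocodazole, which blocks the mitotic spindle, at 200 ng/ml for 6 h and shaken off the plate. The other groups were such cells 1 h and 3 h after release into fresh medium, and untreated asynchronous cells. Each of the 4 groups had 2 libraries, which the table gives as 1 combined column, so no value below has a replicate error, a test or a p-value. The labels do not use the column names early G1 and late G1, which were matched by meaning to the releases of 1 h and 3 h.

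The SLC25 proteins form the largest family of transporters in the mitochondrial inner membrane. Each is built from repeats of 1 fold around a central binding site and moves a small solute, usually in exchange for another, so that the family links the cytosol with oxidative phosphorylation, the citric acid cycle, the urea cycle, fatty acid oxidation and the supply of cofactors. A few members sit elsewhere, in the outer membrane or in peroxisomes. Cells that divide rely on these carriers to bring ADP and phosphate to the ATP synthase and to send citrate and aspartate out for the building of lipids and nucleotides.

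All 42 genes had a signal above 0 in each of the 4 columns and all passed the minimum mean signal of 0.5. The columns are not scaled to 1 total, and their sums are 16863 (mitosis), 361203 (early G1), 326086 (late G1) and 309144 (asynchronous). The sums of the 42 carrier genes were 40.5, 1177, 905 and 774. Below, 4 unlabelled values stand in that same order, and a pair of unlabelled percentages gives early and then late G1 as a share of a gene's own asynchronous signal. Scaling by gene length is not stated in the sources used here, so levels are compared within a gene and not between genes. Of 9 listed markers of pluripotent cells 8 were in the table, with summed signals of 49.2, 1118, 1065 and 992. Of 15 fibroblast markers, which feeder cells would carry, 8 were in the table, with sums of 4.48, 132, 128 and 85.4, and Twist1 was listed at 0 in mitosis. Fn1 held most of that sum except in late G1, where it was 61.3. The other 7 summed to 1.23, 26.0, 67.0 and 32.1, lower in early G1 than in asynchronous cells and higher in late G1. Single genes differed from that sum: Twist1, Pdgfra and Snai2 were higher in early G1, and Pdgfrb and Thy1 lower in late G1. The rest followed it, and Loxl1 alone gave 30.6 of the 67.0. The part of feeder cells in the carrier signal was not tested.

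All carrier genes had less signal in mitosis. Compared with asynchronous cells, all 42 were at least 2-fold lower, as were 99.1% of all genes, where a fold is the ratio of signals after adding 0.1 to both. The median carrier gene kept 5.30% of its asynchronous signal in mitosis, and the median of all genes was 5.36%. The carriers' median log2 ratio lay 0.15 below that of all genes. In these bulk samples, less transcription per cell cannot be told apart from fewer cells that transcribe, and the authors' scaling sets the level of all genes together. With the columns rescaled to equal medians, 2 carriers were at least 2-fold higher in mitosis and 6 lower, beside 1380 and 1011 of 14444 genes. With quantile normalization the carriers split into 1 and 6, beside 1237 and 972 of all genes.

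Relative to the median gene, 1 carrier, Slc25a36, kept at least 2-fold more of its signal, or 2.38% of the carriers against 11.7% of all genes. Slc25a36 carries pyrimidine nucleotides across the inner membrane, and its signal was 3.07 in mitosis and 21.5 in asynchronous cells, a share of 14.3%. At least 2-fold below the median gene were 5 carriers, Slc25a5, Slc25a12, Slc25a23, Slc25a35 and Slc25a47, or 11.9% of the carriers against 6.29% of all genes. Both lists changed with the pseudocount. With 0.02, Slc25a14 and Slc25a15 entered the lower list and Slc25a35 left it. With 0.5, Slc25a1 entered the lower list and Slc25a23 left it, while Slc25a31, Slc25a34 and Slc25a48 replaced Slc25a36 in the higher list. The lowest share belonged to Slc25a47, a carrier known from liver, with 0.151 in mitosis and 28.2 in asynchronous cells, or 0.537%. The shares that the other carriers kept lay between 1.5% for Slc25a14 and 10.6% for Slc25a29.

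**Figure D1:**
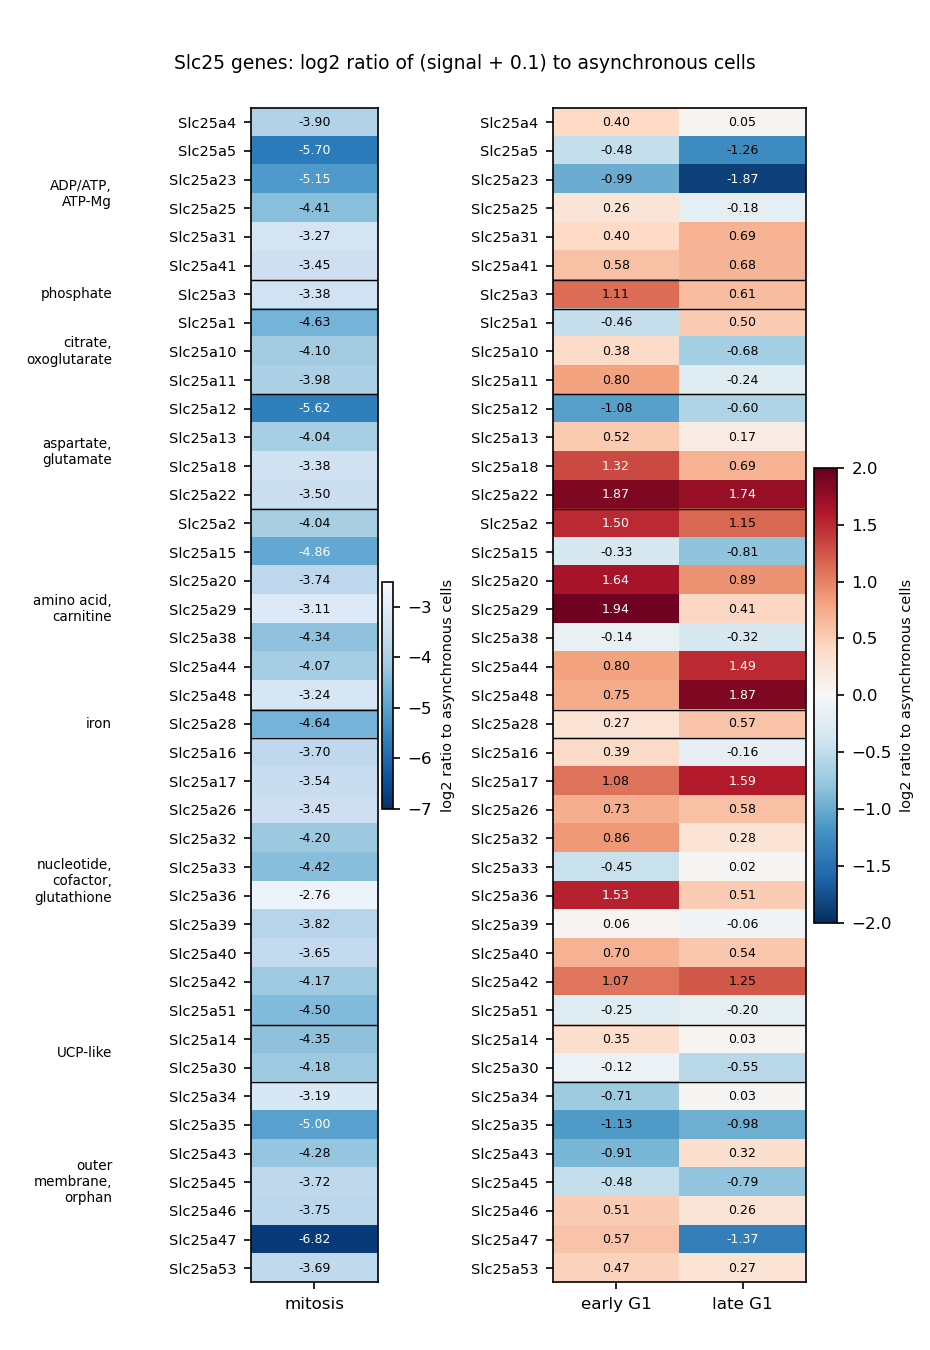
Each row is a carrier gene, ordered by role, and each cell gives the log2 ratio of (signal + 0.1) in mitosis (left, own colour scale), early G1 or late G1 (right) to asynchronous cells, with 1 value per group. All cells drawn for mitosis are negative, from -6.82 for Slc25a47 to -2.76 for Slc25a36, while the G1 columns hold both signs, from -1.87 for Slc25a23 in late G1 to 1.94 for Slc25a29 in early G1.

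Signal returned within the first release: all 42 carrier genes exceeded their mitotic value at least 2-fold in early G1, beside 99.3% of all genes. The median carrier was 20.1-fold higher and the median gene 18.5-fold. At least 2-fold above the median gene were 6 carriers, or 14.3% of them against 5.04% of all genes: Slc25a2, Slc25a5, Slc25a20, Slc25a22, Slc25a42 and Slc25a47. At least 2-fold below it was 1 carrier, or 2.38% against 17.3% of all genes. That gene was Slc25a34, a little characterised carrier with 0.118 in mitosis and 1.11 in early G1. Its log2 ratio was 2.47, beside 4.21 for the median gene. These lists too changed with the pseudocount. With 0.02, Slc25a14 and Slc25a32 entered the higher list and Slc25a5 left it, while Slc25a45 entered the lower list. With 0.5, Slc25a11 and Slc25a29 entered the higher list and Slc25a42 left it. Slc25a31 and Slc25a43 then entered the lower list.

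The 2 G1 columns were set against the asynchronous column, which both comparisons share, and against each other. In early G1, 9 carriers were at least 2-fold higher than in asynchronous cells, or 21.4% of them against 17.7% of all genes, and 2 were at least 2-fold lower, or 4.76% against 9.53%. In late G1, against the same column, 6 carriers were higher, or 14.3% against 16.9%, and 3 were lower, or 7.14% against 5.14%. From early to late G1, 2 were higher, or 4.76% against 15.1%, and 5 lower, or 11.9% against 7.52%. The median log2 ratio of the carriers was 0.40 in early G1 and 0.21 in late G1, beside 0.30 and 0.21 for all genes. Between early and late G1 it was -0.23, beside -0.08.

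These counts moved with the scaling of the columns. Under equal medians the carriers split into 5 higher and 5 lower in early G1 against asynchronous cells, and 5 and 5 in late G1. From early to late G1 the split was 3 and 2. Under quantile normalization the splits were 5 and 3, 6 and 6, and 1 and 3. For all genes, 2596 higher and 1397 lower in early G1 against asynchronous cells became 1277 and 2181 under equal medians and 1364 and 1638 under quantile normalization. In late G1 against asynchronous cells, 2483 and 755 became 1900 and 1162 or 1625 and 1472. From early to late G1 for all genes, 2226 and 1106 became 2557 and 763 or 1583 and 1212.

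**Figure D2:**
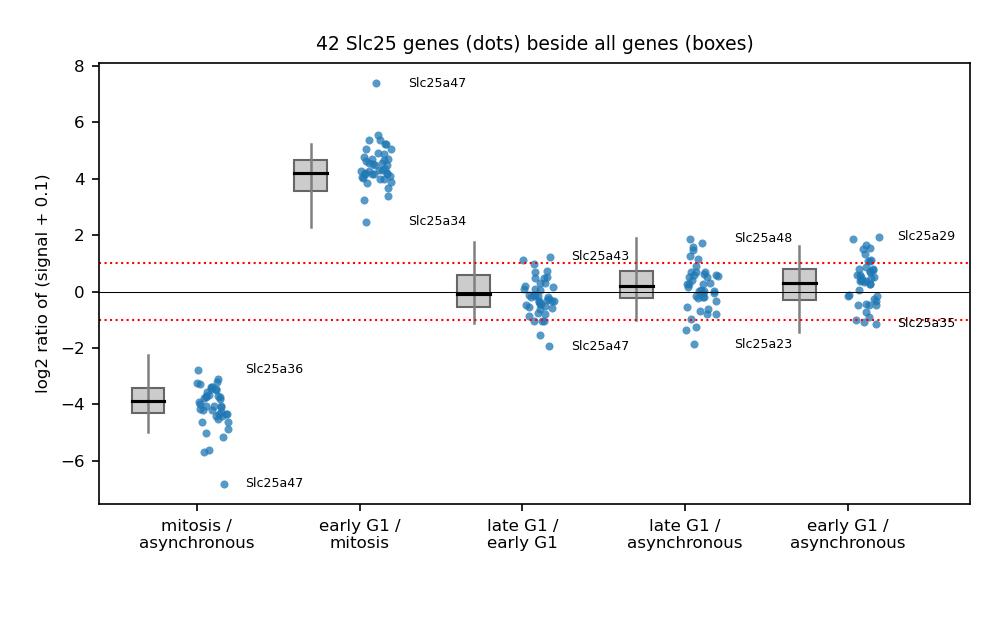
The vertical axis is the log2 ratio of (signal + 0.1) in each of the 5 comparisons; points are the 42 carrier genes, boxes the quartiles of all genes with whiskers from the 5th to the 95th percentile, and red dotted lines a 2-fold difference. The carriers had medians of -4.04, 4.33, -0.23, 0.21 and 0.40, beside -3.89, 4.21, -0.08, 0.21 and 0.30 for all genes.

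The authors' deposited table names a temporal class for each gene. Early_Spike held 15 carriers, or 35.7% against 33.6% of all genes, and Early_Plateau held 13, or 31.0% against 26.3%. Transient held 8, or 19.0% against 24.7%, and Gradual held 6, or 14.3% against 15.4%. The Gradual genes were Slc25a5, Slc25a12, Slc25a23, Slc25a34, Slc25a35 and Slc25a45. By deposited values, the highest column was early G1 for 21 carriers, late G1 for 11 and the asynchronous one for 10 (44.2%, 33.9% and 21.8% of all genes).

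Among the ADP/ATP and ATP-Mg carriers, which exchange adenine nucleotides, none of 6 genes was at least 2-fold higher in either G1 column than in asynchronous cells, beside 17.7% and 16.9% of all genes, and 2 were lower in late G1, beside 5.14%. Slc25a5, the ADP/ATP carrier of dividing cells, starts at position 36795651 of chromosome X on the + strand (GRCm38). Its signal was 1.66 (mitosis), 65.3 (early G1), 37.9 (late G1) and 91.0 (asynchronous). It kept 1.82% of its asynchronous signal in mitosis and stood at 71.8% in early G1 and 41.6% in late G1, the lower value being the later one. Slc25a4, the form of heart and muscle, had 1.71, 35.6, 27.9 and 26.9, and so was at 132% and 104% of its asynchronous signal. Slc25a31, the form known from male germ cells, had 0.0266, 1.52, 1.88 and 1.13. Both of these forms stayed within 2-fold of their asynchronous level in G1. In late G1 the direction of Slc25a4 turned with the scaling, from a log2 ratio of 0.05 to -0.15 under equal medians and -0.11 under quantile normalization, and that of Slc25a31 turned from 0.69 to -0.05 under quantile normalization. Of 5 male germ cell markers 4 were in the table, with summed signals of 0.979, 21.0, 26.2 and 12.5, and their part in the signal of Slc25a31 was not tested.

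The ATP-Mg carriers exchange ATP-Mg for phosphate, and most of them bind calcium. Slc25a23 had 0.243 (mitosis), 6.01 (early G1), 3.23 (late G1) and 12.1 (asynchronous), so that late G1 stood at 26.8% of the asynchronous signal, the lowest such share of any carrier. Slc25a41, the short form without the calcium-binding part, had 0.252, 5.65, 6.07 and 3.75. The 2 genes lie on the same strand of chromosome 17 with starts 18209 bp apart, and in both G1 columns one was below its asynchronous level and the other above. Slc25a25 had 0.300, 10.1, 7.42 and 8.41, with no 2-fold difference between the G1 and asynchronous columns. Its annotated span overlaps Naif1 on the other strand.

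The phosphate carrier Slc25a3 supplies the phosphate for ATP synthesis and also carries copper. Its signal was 3.54 (mitosis), 81.5 (early G1), 57.7 (late G1) and 37.7 (asynchronous). Its annotated span overlaps Gm24119. Early G1 was at 216% of the asynchronous signal and late G1 at 153%. Under equal medians and under quantile normalization its early G1 value was no longer at least 2-fold higher.

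The 3 carriers of citrate, dicarboxylates and oxoglutarate differed in direction. Slc25a1 exports citrate for lipid synthesis, and its signal was 1.18 (mitosis), 23.0 (early G1), 44.9 (late G1) and 31.6 (asynchronous). Slc25a10, which exchanges malate or succinate for phosphate, had 1.16, 28.0, 13.4 and 21.5. Slc25a11, the oxoglutarate/malate carrier of the malate-aspartate shuttle, had 4.39, 123, 60.2 and 70.8. From early to late G1, Slc25a1 went to 195% of its early value while Slc25a10 and Slc25a11 went to 47.8% and 48.8%. The last pair lost its 2-fold difference under equal medians and under quantile normalization, where Slc25a1 reached 2-fold higher.

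The aspartate and glutamate carriers were all above the median gene in the return from mitosis to early G1 (4 of 4). Slc25a22, a glutamate carrier that starts at position 141437593 of chromosome 7 on the - strand, had 1.46 (mitosis), 64.7 (early G1), 59.0 (late G1) and 17.6 (asynchronous). Both G1 values were far above the asynchronous one, at 367% and 335%. The second glutamate carrier, Slc25a18, had 2.16, 58.7, 38.0 and 23.4, or 250% and 162%, with the early value under 2-fold after equal medians and after quantile normalization. The aspartate/glutamate carriers, which bind calcium and drive the malate-aspartate shuttle, behaved differently from each other. Slc25a12 had 0.289, 8.97, 12.5 and 19.1, or 47.1% and 65.6% of its asynchronous signal in early and late G1. Slc25a13, known as citrin, had 0.749, 20.0, 15.6 and 13.9, or 144% and 113%. Under equal medians its late G1 value fell below its asynchronous one, as did those of Slc25a14, Slc25a33 and Slc25a34, described below. The table's start of Slc25a12 lies 19953 bp inside its RefSeq span, and the sources may not describe the same transcript. That span overlaps Gm13641.

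**Figure D3:**
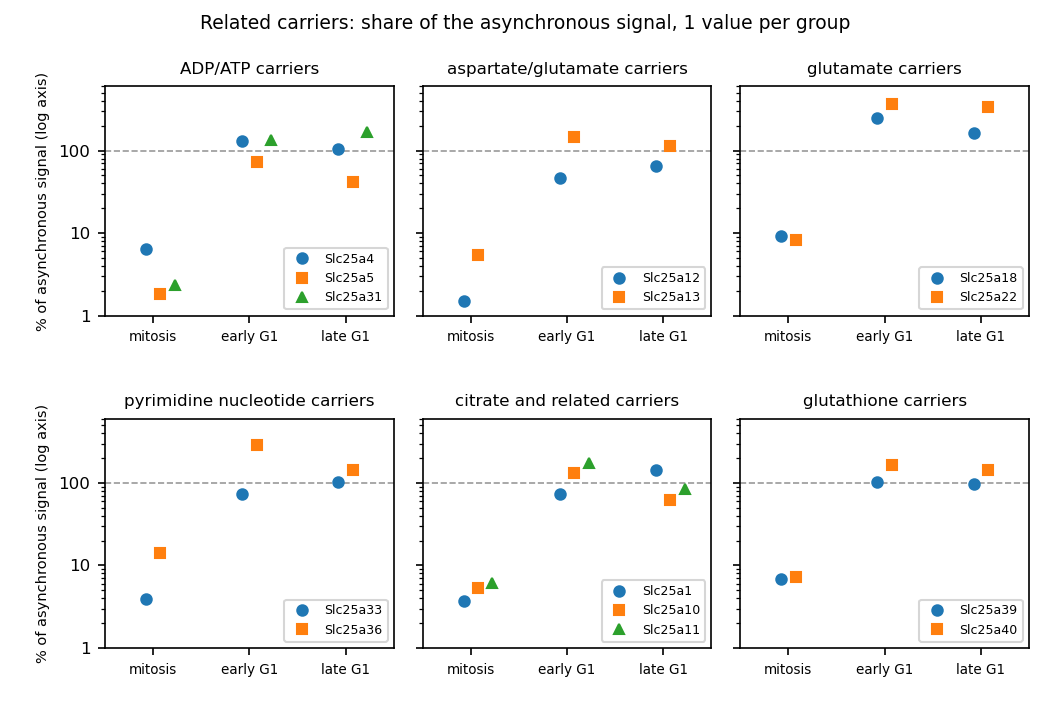
Each panel sets carriers of related substrates side by side, with the signal in mitosis, early G1 and late G1 as a percentage of each gene's own asynchronous signal on a log axis, 1 value per group, and a dashed line at 100%. In the panel of ADP/ATP carriers Slc25a5 lies below the line in both G1 columns (71.8% and 41.6%) and the other forms above it, in late G1 in a direction that turned under other scalings (Slc25a4 under equal medians and quantile normalization, Slc25a31 under the latter), and in the glutamate panel both genes lie above it.

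Of the 7 other amino acid and carnitine carriers, 3 were at least 2-fold higher than asynchronous cells in early G1 and 3 in late G1, beside 17.7% and 16.9% of all genes. None was at least 2-fold lower in either, beside 9.53% and 5.14%. Slc25a29, a carrier of basic amino acids, had 0.928 (mitosis), 34.0 (early G1), 11.7 (late G1) and 8.78 (asynchronous), a single high value at 387% of the asynchronous signal. Slc25a20, which brings acylcarnitines in for fatty acid oxidation, had 1.39, 61.9, 36.8 and 19.8, or 313% in early G1 and 186% in late G1. Slc25a2, an ornithine carrier, had 3.56, 169, 133 and 59.9, or 282% and 222%, the late value being under 2-fold with equal medians. It lies inside the RefSeq spans of Gm37013, Gm38666 and Gm38667, so its signal may not be its own. The main ornithine carrier of the urea cycle, Slc25a15, went the other way with 0.258, 8.18, 5.83 and 10.3, or 79.6% and 56.8%.

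Late G1 held the top value of 2 further genes of this group. Slc25a48, a carrier linked to choline, had 0.105, 3.13, 6.92 and 1.83, and its 379% in late G1 was the largest share of the 42 genes in that column. Slc25a44, a carrier of branched-chain amino acids, had 0.507, 17.7, 28.5 and 10.1, or 283% in late G1, and its span overlaps Gm33513. Slc25a38, which brings in glycine for haem synthesis, had 0.562, 12.0, 10.6 and 13.3 and stayed within 2-fold of its asynchronous level. The iron carrier Slc25a28, known as mitoferrin 2, had 0.636, 22.0, 27.2 and 18.2, likewise within 2-fold in G1.

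Of the 11 nucleotide, cofactor and glutathione carriers, 3 were at least 2-fold higher than asynchronous cells in early G1 and 2 in late G1. The shares of all genes were 17.7% and 16.9%. None was at least 2-fold lower in either, beside 9.53% and 5.14%. Slc25a17, a peroxisomal carrier of coenzyme A and other cofactors, had 0.632 (mitosis), 18.0 (early G1), 25.5 (late G1) and 8.44 (asynchronous). Slc25a42, a mitochondrial coenzyme A carrier, had 0.401, 18.9, 21.4 and 8.94. Both were higher in each G1 column than in asynchronous cells, at 213% and 303% for Slc25a17 and 211% and 239% for Slc25a42. The early G1 differences of both fell under 2-fold with equal medians and with quantile normalization. Slc25a16, another carrier linked to coenzyme A, had 0.298, 6.68, 4.54 and 5.09, with no 2-fold difference in G1.

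Slc25a36 and Slc25a33 both carry pyrimidine nucleotides. Slc25a36 had 62.4 in early G1 and 30.5 in late G1, or 291% and 142% of its asynchronous 21.5. Slc25a33 had 0.514 (mitosis), 9.53 (early G1), 13.3 (late G1) and 13.1 (asynchronous), or 72.9% and 102%. In early G1 Slc25a36 had its highest value while Slc25a33 was below its asynchronous level. The glutathione carriers were closer to each other: Slc25a39 had 2.69, 40.9, 37.9 and 39.4, and Slc25a40 had 0.994, 22.3, 19.8 and 13.7. Neither reached a 2-fold difference in G1.

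Of this group, 3 more genes were within 2-fold of asynchronous cells in both G1 columns. Slc25a26, which carries the methyl donor S-adenosylmethionine, had 0.309, 7.33, 6.61 and 4.38, or 167% and 151%, and its span overlaps Lrig1. Slc25a32, a carrier linked to folate and FAD, had 0.183, 9.34, 6.18 and 5.08, or 184% and 122%. Slc25a51, the carrier of NAD, had 0.435, 10.1, 10.4 and 12.0, or 84.2% and 86.8%. The carriers that resemble uncoupling proteins were near their asynchronous level in early G1. Slc25a14 had 0.0420, 3.60, 2.87 and 2.80, or 128% and 102%, and Slc25a30 had 0.307, 6.70, 4.94 and 7.30, or 91.8% and 67.7%.

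The 7 outer-membrane and little characterised carriers went both ways in early G1 against asynchronous cells. Of them 3 lay above the median gene and 4 below it, 0 were at least 2-fold higher, beside 17.7% of all genes, and 1 was at least 2-fold lower, beside 9.53%. Their median log2 ratio was 0.79 below that of all genes. Slc25a35 had 1.04 (mitosis), 16.5 (early G1), 18.4 (late G1) and 36.3 (asynchronous), or 45.4% and 50.7%. Its annotated span overlaps Rangrf. Slc25a43, whose span overlaps Gm23613, had 0.192, 2.93, 7.0 and 5.59. Its late G1 value stood at 239% of early G1, the largest such share of the 42 genes. That difference was under 2-fold after quantile normalization, as was the one between the G1 columns of Slc25a48. Slc25a34 was at 59.0% of its asynchronous signal in early G1 and at 102% in late G1. Slc25a45 had 0.596, 6.47, 5.21 and 9.08, below its asynchronous level throughout. Slc25a46, an outer-membrane protein of mitochondrial dynamics, had 0.306, 7.67, 6.44 and 5.37, or 143% and 120%. Slc25a53, whose span overlaps Zcchc18, had 0.189, 5.06, 4.38 and 3.63, or 139% and 121%.

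Slc25a5 and Slc25a43 are neighbours on the + strand of chromosome X with starts 51992 bp apart. Between the G1 columns the first went to 58.0% of its value and the second to 239%. The RefSeq bases before their annotated starts (GRCm38.p6) are shown because this pair moved in opposite directions. Capitals mark a GC box, searched as GGGCGGG or CCCGCCC. The first stretch is chrX:36795347-36795596 and the second chrX:36743382-36743569, both + strand and 5′ to 3′.
Slc25a5: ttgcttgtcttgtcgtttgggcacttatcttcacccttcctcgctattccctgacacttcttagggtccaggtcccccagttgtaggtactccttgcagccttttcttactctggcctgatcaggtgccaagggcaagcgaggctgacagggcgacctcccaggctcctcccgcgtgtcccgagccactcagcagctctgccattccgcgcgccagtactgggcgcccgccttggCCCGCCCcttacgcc
Slc25a43: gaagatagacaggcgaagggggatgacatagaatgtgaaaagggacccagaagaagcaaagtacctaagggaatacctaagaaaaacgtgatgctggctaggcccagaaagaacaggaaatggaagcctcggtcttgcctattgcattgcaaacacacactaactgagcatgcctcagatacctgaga
The stretches differ in length, and neither holds bases after the start. In the windows of 300 bases described below, both promoters hold a GC box.

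Slc25a29 and Slc25a47 have starts 163 bp apart in the table, on opposite strands of chromosome 12, at positions 108835883 and 108836046. The signal named Slc25a47 was 0.151 (mitosis), 42.0 (early G1), 10.8 (late G1) and 28.2 (asynchronous), and that of Slc25a29 was 0.928, 34.0, 11.7 and 8.78. Both were at least 2-fold lower in late G1, at 25.8% and 34.4% of the early value. They differed against asynchronous cells, where Slc25a47 stood at 149% and 38.4% in early and late G1 and Slc25a29 at 387% and 133%. They differed in mitosis too, with 0.537% and 10.6% of the asynchronous signal. The table's start of Slc25a47 lies 13787 bp upstream of the RefSeq span of the gene, which runs from 108849833 to 108856815. A start over 10000 bp upstream occurred in 83 of 14397 genes matched by symbol, or 0.577%, so the signal cannot be assigned to the RefSeq gene with certainty. Of 5 liver markers 2 were in the table, with summed signals of 0.149, 3.44, 25.8 and 3.92, and the defining markers Alb and Afp were not among them. Apoa1 alone gave 24.2 of the 25.8 in late G1 and was listed at 0 in mitosis. The other, Ttr, had 2.39 in early G1 and 1.60 in late G1.

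The stretch between these starts is printed because the pair shares it and both genes were lower in late than in early G1. It is chr12:108835884-108836045 of GRCm38.p6 from RefSeq, read on the - strand towards Slc25a29. Capitals mark matches to CCAAT or ATTGG and to CCCGCCC, the reverse complement of the GC box GGGCGGG.
Slc25a29-Slc25a47: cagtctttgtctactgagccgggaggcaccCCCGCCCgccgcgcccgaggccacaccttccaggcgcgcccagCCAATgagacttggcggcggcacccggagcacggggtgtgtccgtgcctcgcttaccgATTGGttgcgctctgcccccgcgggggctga
The 162 bases hold a CCAAT match on each strand and 1 GC box.

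RefSeq promoters of 300 bases, 250 before and 50 after the start, were matched for 31 of the 42 carriers and for 10282 of all 14861 genes. On either strand, the CCAAT box (CCAAT) was in 15 carrier promoters, or 48.4% against 38.4% of all, and the GC box (GGGCGGG) in 21, or 67.7% against 48.7%. The E-box CACGTG, the site form of MYC and related factors, was in 6, or 19.4% against 10.5%: those of Slc25a1, Slc25a13, Slc25a14, Slc25a31, Slc25a33 and Slc25a36. The ETS form CCGGAAG was in 6, or 19.4% against 18.1%. The NRF1 core GCGCATGC was in that of Slc25a31, or 3.23% against 5.65%, TATAAA in that of Slc25a18, or 3.23% against 6.91%, and the YY1 core AAGATGGC in that of Slc25a3, or 3.23% against 4.74%. The median GC content was 60.7% against 61%. Matches of different motifs may share bases, and a match describes letters only. The promoters of the other 11 carriers were not used here.

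Other carriers also start beside a gene on the opposite strand. Slc25a11 and Rnf167 start 192 bp apart with overlapping beginnings, and Rnf167 had 8.35 (mitosis), 219 (early G1), 140 (late G1) and 231 (asynchronous). Slc25a40 and Dbf4, a regulator of DNA replication, start 157 bp apart without overlap, and Dbf4 had 1.24, 29.9, 12.6 and 21.2. Dbf4 went to 42.2% of its early value in late G1 and Slc25a40 to 89.1%. Slc25a32 and Dcaf13 start 233 bp apart, and Dcaf13 had 0.419, 14.5, 6.37 and 5.80, going to 43.9% where Slc25a32 went to 66.2%. Naif1, 965 bp from Slc25a25, had 2.73, 37.1, 23.2 and 48.1. B930094E09Rik, 390 bp from Slc25a46, was listed at 0 in mitosis and had 16.3, 30.9 and 11.8 in the other columns. Where spans overlap, the table does not show how reads were shared, and the use of strand is not stated. In all, 17 carriers overlapped another gene or had such a close start. The 25 others held 6 genes at least 2-fold higher and 0 lower in early G1 against asynchronous cells, beside 9 and 2 in the full set. Of all genes, with overlapping and close ones kept in, 17.7% were higher and 9.53% lower.

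**Figure D4:**
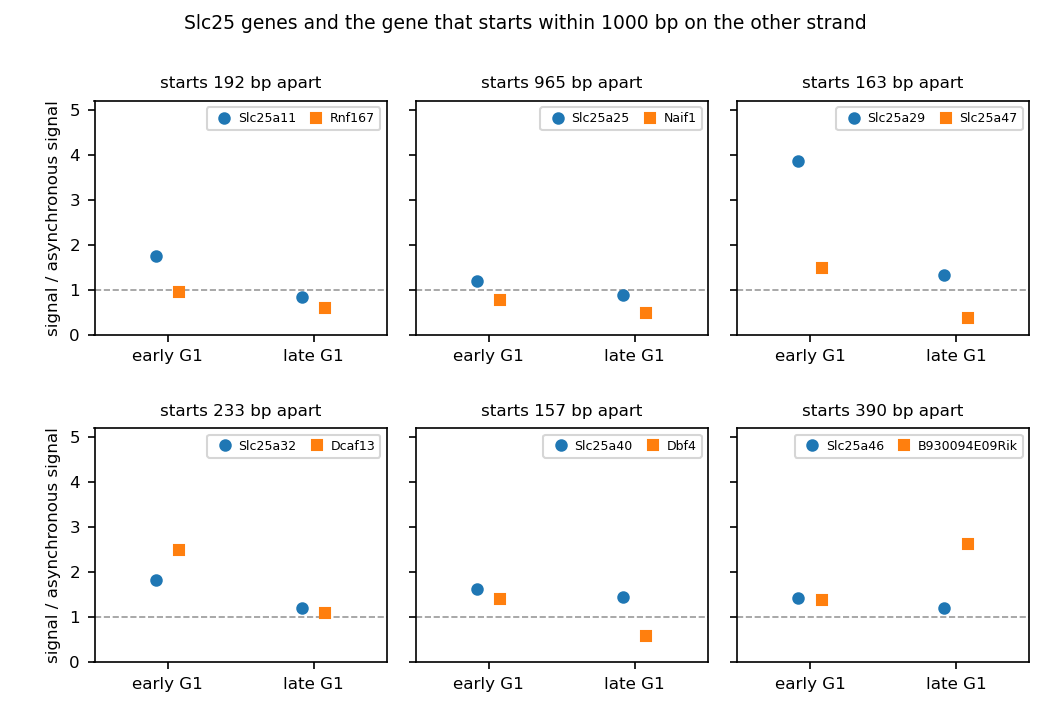
Each panel gives a carrier gene (circles) and the gene that starts within 1000 bp on the other strand (squares), with the signal in early and late G1 divided by the asynchronous signal on a linear axis, 1 value per group, and a dashed line at 1. Slc25a29 stands at 3.87 in early G1 and its neighbour Slc25a47 at 1.49, while Slc25a40 and Dbf4 part in late G1.

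Genes of related function were counted in the same way, against asynchronous cells and beside the shares of all genes, which were 17.7% higher and 9.53% lower in early G1 and 16.9% higher and 5.14% lower in late G1. Of 5 genes of the carrier family under other symbols, 1 was at least 2-fold higher and 0 lower in early G1, and 1 higher and 1 lower in late G1. The lower one was Ucp2, a carrier named for uncoupling, with 0.946 (mitosis), 29.9 (early G1), 23.7 (late G1) and 48.4 (asynchronous). Of 18 inner-membrane transporters outside the family, 3 were higher in early G1, 1 was higher in late G1, and 0 were lower in either. Of 22 outer-membrane channels and import genes, 4 were higher in early G1, 1 was higher in late G1, and 0 were lower. Among 21 enzymes of the citric acid cycle and the malate-aspartate shuttle, which work on the substrates of these carriers, 3 were higher and 0 lower in early G1, and 1 higher and 1 lower in late G1. The lower one was Cs, citrate synthase, with 1.19, 42.6, 25.8 and 55.8. Of 13 enzymes of one-carbon, iron and haem metabolism none was higher in either column, and 3 were lower in early G1 and 2 in late G1. Those 2 were Mthfd2, with 35.7 in asynchronous cells and 14.9 in late G1, and Shmt2, with 46.8 and 19.7. Of 11 regulators of mitochondrial gene transcription 1 was higher and 0 lower in each column. The lists' median log2 ratios lay between -0.22 and 0.44 of that of all genes in early G1, beside 0.10 for the carriers, and between -0.38 and 0.18 in late G1, beside 0.00.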

How the data were processed

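PRO-seq of the 4 groups was used as deposited. The values are the authors' normalized signal per gene, per the file headers, with the 2 libraries of a group already combined. The submitters' processing notes name the build GRCm38 (mm10) and the tools Bowtie2, SAMtools, Picard and cutadapt. Their roles and versions, the assignment of reads to genes, the combination of libraries and the scaling are not stated in the sources used here, and the temporal class deposited by the authors is a text label made in an unstated way. Low values showed no whole-read steps, which leaves the sequencing depth unknown and allows no counting interval.

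Ratios were computed as log2 of (signal + 0.1) for genes with a mean signal of at least 0.5 (14814 genes), leaving out a gene in a comparison where a column lists it at 0. This ratio understates the change of low genes, and percentages carry no pseudocount. A gene was counted at a fold of at least 2. The 5 comparisons were made. A limma fit, intended for columns of single libraries, could not be run. The counting step was tested on simulated data. Members were all genes that match the symbol rule, described by role; 1 of them enters the counts and medians but is not reported here by itself. The members, lists, markers and motifs were chosen with earlier results of these data known. Positions and promoters came from RefSeq tables of GRCm38.p6, matched by symbol. Alternatives were pseudocounts of 0.02 and 0.5, no minimum signal or 2.5, equal column medians, quantile normalization, genes at 0 kept, carriers without overlapping or close genes, and a promoter window from 100 bases before the start. Python 3.11.15, pandas 2.3.3, numpy 2.4.6 and matplotlib 3.10.9 were used.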

Additional observations from a re-analysis of the deposited data

How the results depend on the processing

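No paired analysis was possible because each group has 1 combined column, and for the same reason no replicate could be left out. Under equal medians, 2 carriers were at least 2-fold higher and 6 lower in mitotic against asynchronous cells, 4 and 2 in early G1 against mitosis, 5 and 5 in late G1 against asynchronous cells, and 5 and 5 in early G1 against asynchronous cells, and 2 were lower in late than in early G1. Quantile normalization gave 1 and 6, 4 and 1, 6 and 6, and 5 higher in the same comparisons. It gave 1 higher and 3 lower in late against early G1. For all 14444 genes in mitotic against asynchronous cells, equal medians gave 1380 higher and 1011 lower, and quantile normalization 1237 and 972. For all 14456 genes in early G1 against mitosis, these gave 715 and 1982, and 800 and 1283. The other counts of all genes are given above. Among the 25 carriers without an overlapping or close gene, 25 were lower in mitosis and 25 higher in early G1 against mitosis. Of these 25, 1 was higher and 2 lower in late against early G1, and 0 lower in early G1 against asynchronous cells. Fewer genes were counted in this setting. The shares of all genes, with overlapping and close ones kept in, were 99.1%, 99.3%, 15.1%, 7.52% and 9.53% in the same order. Equal medians multiply each level by 19.3 in mitosis, 0.799 in early G1 and 0.867 in late G1. In the shorter promoter window the NRF1 core was in 0 of 31 carrier promoters, the E-box in 3 (9.68% against 6.68% of all) and the ETS form in 4 (12.9% against 14.0%, the other direction). The CCAAT box was in 38.7% against 25.7% and the GC box in 51.6% against 39.1%. The other alternatives were both pseudocounts, both minimum signals and genes at 0 kept. With these, no count of carriers at least 2-fold higher or lower between columns moved by over 1.5 times. Counts relative to the median gene were not part of that check, and both pseudocounts changed which carriers they held. No difference has a replicate error, the depth is unknown, and the authors' scaling sets how mitosis compares with the other groups.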
